A study of Apis mellifera with 27 samples.

Results

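Fatty acid-binding proteins are small intracellular proteins that carry fatty acids and other lipids between membranes, lipid stores and enzymes. In the mouse brain the family member Fabp7 is made by astrocytes and neural progenitors, and its mRNA cycles over the day. In Drosophila, raising the level of a fatty acid-binding protein changes sleep and long-term memory. The honey bee (Apis mellifera) gene with this name was followed here under the identifiers Fabp and Fabp_1, the 2 of 12319 identifiers in the count table that begin with Fabp. RefSeq lists, for Amel_HAv3.1, 2 genes on different linkage groups with the symbol Fabp, and the sources used here do not say which of them each identifier counts. Fabp was chosen by its course over the 7 time points in an earlier test of these same libraries, and Fabp_1 was taken with it for its name. The levels over time are therefore given as a description, with no test. The differences between colonies did not choose the gene and were tested, though in the same libraries. The colony difference at single time points and its change over time reuse the values of that course, so these tests are not free of the choice.

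The libraries came from the mushroom bodies of time-trained foragers, the memory centres of the insect brain, cut out by laser capture so as to enrich small Kenyon cells, a class of their intrinsic neurons. Colony 2 gave 13 libraries and colony 1 gave 14, at 06:00, 10:00, 14:00, 18:00 and 22:00 of day 11 and at 02:00 and 06:00 of day 12. All bees were untreated apart from the training. Each colony and time point had 2 libraries, except that colony 2 at 06:00 of day 11 had 1. Replicate 1 of that group is not among the 27 libraries of the series. The colonies were independent and were tested in separate experiments, so colony and experimental run cannot be told apart, and each side of every colony comparison is a single colony. The labels give no strain or age and do not tie libraries to bees, so p-values measure the spread between these libraries only, which may be technical.

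Total counts per library were 5589770 to 10846551 in colony 2 and 8732841 to 12277539 in colony 1, and genes with at least 1 count numbered 8483 to 9946 in colony 2 and 9869 to 10444 in colony 1. Fabp had 2547 to 11550 counts per library and Fabp_1 had 2966 to 15335, so that counting error was at most 1.98% of a level. Levels are CPM, counts scaled to a common library size, after TMM scaling, and levels of Fabp and Fabp_1 are not set against each other because the lengths of their exons are not given here. On the first principal component of all genes, 3 libraries of colony 2 stood apart, at 66.0 to 94.7 against at most 45.0 in the other 24. They were the library of 06:00 of day 11 and both libraries of 10:00. The colony difference, interaction, range, fitted peak and ratio of Fabp and Fabp_1 are also given without these 3. Most other values are given with all libraries only.

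The tissue label was set against marker genes. The genes listed here as small Kenyon cell markers, Tk, Ecr, E74 and Br-c, were 4 of the 6 names sought. They summed to 431 to 2227 CPM in colony 2 and 1329 to 1886 CPM in colony 1. The colony 2 library of 06:00 of day 11 was the lowest, at 431 CPM, against at least 946 CPM in the other 26. The large and middle Kenyon cell markers Mblk-1 and Camkii, 2 of 7 names, were also present, at 2248 to 9944 CPM in colony 2 and 4464 to 6982 CPM in colony 1. Br-c was highest in the same library as Mblk-1 and Camkii, a colony 2 library of 18:00. Whether Br-c marks small rather than large Kenyon cells was not tested. Of 15 glial names 1 matched, the glutamate transporter Eaat-2, which had 28.0 to 211 CPM in colony 2 and 39.9 to 165 CPM in colony 1. The 16 of 18 gland, fat body and hemolymph names that matched summed to 41.0 to 94.3 CPM in colony 2 and 43.6 to 148 CPM in colony 1. The list was not uniform. The yolk protein gene Vg was at 0 in 14 of the 27 libraries and the storage protein gene Hex70c at 0 in 26. HEX70b, Mrjp7 and Mrjp8 were at 0 in no library, with medians of 10.7, 15.6 and 10.3 CPM, and Apid1 reached 63.9 CPM.

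Fabp was highest at 10:00 or 14:00 in both colonies and lay lower from 22:00 onward. In colony 2, Fabp had 1341 CPM at 06:00 of day 11, 1562 and 1641 CPM at 10:00, 1242 and 993 CPM at 14:00, 861 and 1127 CPM at 18:00, 865 and 681 CPM at 22:00, 617 and 556 CPM at 02:00, and 620 and 660 CPM at 06:00 of day 12. In colony 1, Fabp had 289 and 520 CPM at 06:00 of day 11, 667 and 816 CPM at 10:00, 754 and 817 CPM at 14:00, 559 and 755 CPM at 18:00, 481 and 473 CPM at 22:00, 485 and 471 CPM at 02:00, and 508 and 478 CPM at 06:00 of day 12. Colony 2 was highest at 10:00 and lowest at 02:00, whereas colony 1 was highest at 14:00 and lowest at 06:00 of day 11. Replicates of colony 1 lay close together at night, with an SD of 5.96 CPM at 22:00 and 10.2 CPM at 02:00, and far apart at 06:00 of day 11, with an SD of 163 CPM.

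**Figure D1:**
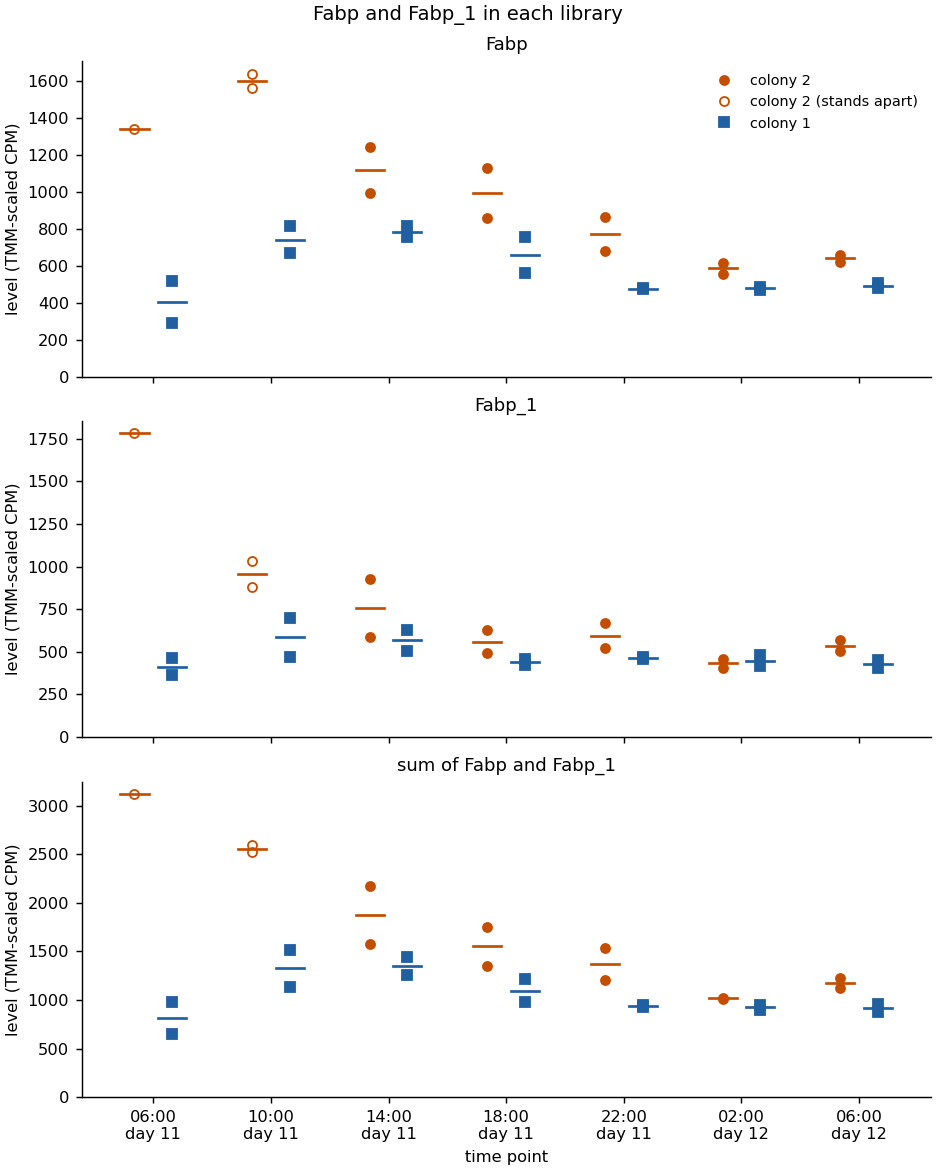
Level of Fabp, Fabp_1 and their sum in every library, as TMM-scaled CPM, at the 7 time points. Circles are colony 2 and squares colony 1, open circles are the 3 libraries that stand apart, and short lines are means. At each time point every library of colony 2 is above every library of colony 1 for Fabp, and the gap is widest at 06:00 and 10:00 of day 11.

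Over both colonies Fabp averaged 717 ± 553 CPM at 06:00 of day 11 (SD, n = 3), 1171 ± 501 at 10:00, 951 ± 218 at 14:00, 825 ± 237 at 18:00, 624.97 ± 187 at 22:00, 532 ± 67.7 at 02:00 and 567 ± 87.2 at 06:00 of day 12 (SD, n = 4 each). The highest mean, at 10:00, was 1.14 above the lowest, at 02:00, on the log2 scale. In the order of the 7 means, no neighbours differed by more than the larger of their SDs, and each SD also holds the gap between the colonies. Within colony 2 alone every neighbouring pair in the order differed by more than its larger SD except 14:00 and 18:00, although 06:00 of day 11 is 1 library. Within colony 1 alone the sole gap larger than the SD was between 18:00 and 06:00 of day 12, at 657 and 493.1 CPM, which separated 14:00, 10:00 and 18:00 from the other 4 time points. All 4 libraries of 10:00 were above all 4 of 02:00 for Fabp, at 667 CPM or more against 617 CPM or less. The same held for 488 of the 9816 genes tested, or 4.97%. That count is read as a description, since Fabp was chosen by its course.

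Fabp_1 had a less even course, and its highest values came from 1 library. It had 1781 CPM in colony 2 at 06:00 of day 11, against 361 and 462 CPM in colony 1. At 10:00 it had 1036 and 878 CPM in colony 2 and 469 and 701 CPM in colony 1, and at 14:00 it had 929 and 587 CPM in colony 2 and 504 and 630 CPM in colony 1. From 18:00 on its libraries lay between 404 and 668 CPM in both colonies. Colony 2 had 492 and 628 CPM at 18:00, 668 and 521 at 22:00, 406 and 460 at 02:00 and 502 and 570 at 06:00 of day 12. Colony 1 had 422 and 460 CPM at 18:00, 472 and 458 at 22:00, 417 and 480 at 02:00 and 453 and 404 at 06:00 of day 12. Unlike Fabp, the libraries of 10:00 and 02:00 overlapped for Fabp_1, at 469 CPM in the lowest of 10:00 and 480 CPM in the highest of 02:00.

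Over both colonies Fabp_1 averaged 868 ± 792 CPM at 06:00 of day 11 (SD, n = 3), 771 ± 243 at 10:00, 662 ± 185 at 14:00, 500.3 ± 89.6 at 18:00, 530 ± 96.0 at 22:00, 441 ± 35.2 at 02:00 and 482 ± 70.8 at 06:00 of day 12 (SD, n = 4 each). In the order of these means, too, no neighbours differed by more than the larger SD. Within colony 2 alone 06:00 of day 11 lay above 10:00, and 06:00 of day 12 above 02:00, by more than the SD, and within colony 1 alone 14:00 lay above 22:00 by more than the SD. Its highest and lowest means were 0.98 apart on the log2 scale over both colonies. That range was 2.04 in colony 2 alone and 0.51 in colony 1 alone. For Fabp it was 1.45 in colony 2 alone and 0.96 in colony 1 alone. Without the 3 libraries that stand apart it was 0.68 for Fabp_1 and 1.23 for Fabp, the highest Fabp mean was then at 14:00, and the lowest was at 06:00 of day 11. The means at 06:00 of day 11 and at 10:00 are then of colony 1 alone and that at 14:00 is of both colonies, so these ranges hold the colony difference as well.

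The sum of Fabp and Fabp_1 had 3122 CPM at 06:00 of day 11 in colony 2, the highest of all 27 libraries, against 651 and 983 CPM in colony 1. At 10:00 the sum was 2597 and 2519 CPM in colony 2 and 1136 and 1517 CPM in colony 1. At 14:00 it was 2170 and 1579 CPM in colony 2 and 1258 and 1446 CPM in colony 1, and at 18:00 it was 1353 and 1755 CPM in colony 2 and 980.4 and 1215 CPM in colony 1. At 22:00 it was 1533 and 1202 CPM in colony 2 and 953 and 931 CPM in colony 1. The colonies were nearest to each other at 02:00, at 1023 and 1015 CPM in colony 2 and 902 and 951 CPM in colony 1. At 06:00 of day 12 it was 1122 and 1230 CPM in colony 2 and 961 and 882 CPM in colony 1. The sum averaged 1585 ± 1342 CPM at 06:00 of day 11 (SD, n = 3), 1942 ± 729 at 10:00, 1614 ± 394 at 14:00, 1326 ± 325 at 18:00, 1155 ± 281 at 22:00, 973 ± 57.0 at 02:00 and 1049 ± 157 at 06:00 of day 12 (SD, n = 4 each). A level of RNA in captured tissue does not tell more cells that make it from more RNA per cell.

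The same clock hour was sampled a day apart, at 06:00. In colony 2 the Fabp level was 620 and 660 CPM at 06:00 of day 12, against 1341 CPM at 06:00 of day 11. In colony 1 it was 508 and 478 CPM at 06:00 of day 12, against 289 and 520 CPM at 06:00 of day 11. Both libraries of colony 2 were thus lower on the second morning than the single library of the first, while the libraries of colony 1 overlapped between the mornings.

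A 24 h cosine fitted to the log2 levels placed the peak of Fabp at 13.3 h over both colonies, at 12.5 h in colony 2 and at 14.2 h in colony 1. The fitted peak was 2.03 times the trough over both colonies, 2.23 times in colony 2 and 1.90 times in colony 1. For Fabp_1 the fitted peak was at 11.4 h over both colonies, with a fold of 1.53, and colony 2 had its peak at 10.5 h and colony 1 at 13.4 h. The cosine took up 55.9% of the variance of Fabp around its colony means and 23.0% of that of Fabp_1. Without the 3 libraries that stand apart the peak was at 14.5 h for Fabp, with a fold of 1.89, and at 13.6 h for Fabp_1, with a fold of 1.39.

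Markers of other cells were also followed over time. Eaat-2 had 72.7 to 165 CPM at 10:00 and 28.0 to 55.5 CPM at 02:00, with no overlap. All 4 libraries of 10:00 were likewise above those of 02:00 for 4.97% of the 9816 genes tested. Eaat-2 did not pass edgeR's test for time (adjusted p = 0.0905). The muscle markers overlapped, at 87.6 to 705 CPM at 10:00 and 19.2 to 169 CPM at 02:00. So did the photoreceptor and optic lobe markers, at 43.3 to 375 CPM and 42.3 to 176 CPM. Of these, Uvop was called for time (edgeR adjusted p = 0.0417). In the 3 libraries that stand apart Eaat-2 had 126 to 211 CPM, the photoreceptor and optic lobe markers (4 of 6 names) summed to 285 to 375 CPM and the muscle markers (7 of 14 names) to 196 to 705 CPM. In the other 24 libraries these were 28.0 to 165 CPM for Eaat-2, 42.3 to 364 CPM for the photoreceptor and optic lobe markers and 16.6 to 251 CPM for the muscle markers. Most of the photoreceptor and optic lobe sum in the 3 libraries was Lop1, at 230 to 346 CPM. Uvop went the other way, at 31.1 CPM in the library of 06:00 and 9.14 and 6.01 CPM in those of 10:00. Its median over all 27 libraries was 32.4 CPM. The part of these markers in the level of Fabp was not tested.

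**Figure D2:**
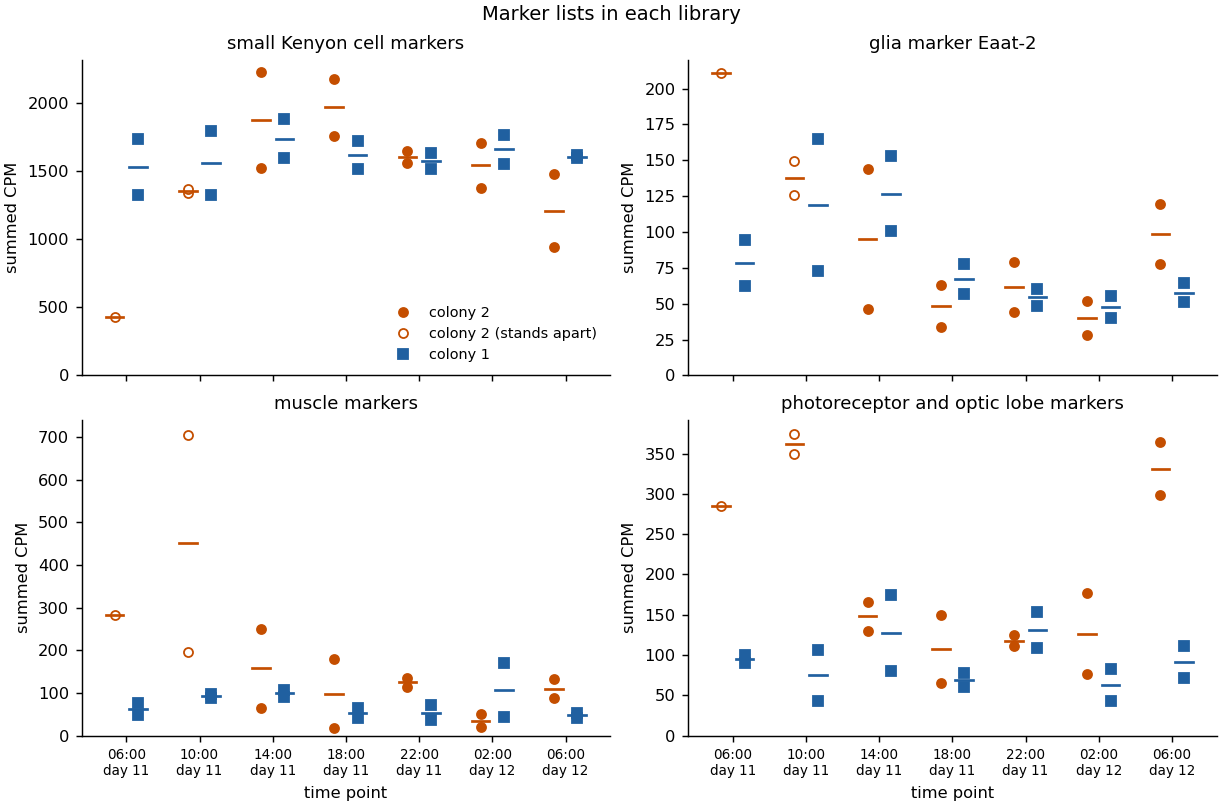
Summed CPM of the small Kenyon cell markers, the glial marker Eaat-2, the muscle markers and the photoreceptor and optic lobe markers in every library at the 7 time points. Circles are colony 2 and squares colony 1, open circles are the 3 libraries that stand apart, and short lines are means. The colony 2 library of 06:00 of day 11 is lowest for the small Kenyon cell markers, at 431 CPM, and highest for Eaat-2, at 211 CPM.

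Fabp was higher in colony 2 than in colony 1, in the same direction at every time point. Across the time points the difference of colony 2 minus colony 1 was 0.72 on the log2 scale for Fabp (SE 0.117, edgeR quasi-likelihood adjusted p = 0.000199), a fold of 1.65. For Fabp_1 it was 0.54 (SE 0.140, adjusted p = 0.00638), a fold of 1.46, and for the sum 0.65 (SE 0.125, adjusted p = 0.000811). Calls higher in colony 2 were made for 10.6% of the 9816 genes tested and calls lower in colony 2 for 14.3%. By p-value Fabp ranked 59 of 9816 genes and Fabp_1 ranked 904. In counts chosen after seeing the data, the libraries of colony 2 were all above those of colony 1 at 7 of the 7 time points for Fabp and for the sum, and at 5 of 7 for Fabp_1. This held at all 7 time points for 40 genes, or 0.407%. The mean of colony 2 was the higher at all 7 time points for 529 genes, or 5.39%, Fabp among them, and Fabp_1 had the higher mean in colony 2 at 6 of 7.

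Other measures were also compared between the colonies, and not all of them differed. The photoreceptor and optic lobe markers summed to 65.6 to 375 CPM in colony 2 and 42.3 to 174 CPM in colony 1, and of the 4 genes 2 were called higher in colony 2 and 1 lower. The muscle markers summed to 16.6 to 705 CPM in colony 2 and 36.1 to 169 CPM in colony 1. The 6 muscle genes tested did not pass, with edgeR adjusted p between 0.0682 and 0.310. Their log2 differences of colony 2 minus colony 1 ran from -0.67 for TpnCIIIb to 1.31 for TpnCI. Eaat-2 had an adjusted p of 0.618 for colony, and fewer genes had a count in colony 2, as given above. Their part in the Fabp difference was not tested.

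Without the 3 libraries that stand apart, the colony difference was 0.49 for Fabp (adjusted p = 0.00148) and 0.40 for the sum (adjusted p = 0.00536), both still called, and 0.27 for Fabp_1 (adjusted p = 0.0530), which no longer passed. In a comparison also chosen after seeing the data, Fabp was then non-overlapping at 5 of the 5 time points left, as were 57 of 9992 genes, or 0.57%. With replicate libraries added into 1 library per colony and time point, neither Fabp nor Fabp_1 passed, with differences of 0.76 (adjusted p = 0.0840) and 0.59 (adjusted p = 0.147), and 24 genes in all were called.

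The size of the colony difference changed over the course, and the largest differences were in the libraries that stand apart. The interaction of colony and time point had an adjusted p of 0.0161 for Fabp, 0.00121 for Fabp_1 and 0.00257 for the sum (edgeR), and 22.5% of all genes were called for it. Leaving out the colony 2 library of 06:00 of day 11 alone gave an adjusted p of 0.408 for Fabp, 0.564 for Fabp_1 and 0.430 for the sum, and 215 genes were then called in place of 2209. Without all 3 libraries the adjusted p was 0.850 for Fabp and 0.793 for Fabp_1, with 9 genes called. In that library the small Kenyon cell markers and the large and middle Kenyon cell markers were each lowest of all 27, at 431 CPM and 2248 CPM, and Eaat-2 was highest, and their part in the interaction was not tested.

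By time point, colony 2 was higher at 06:00 of day 11 by 1.73 on the log2 scale for Fabp (SE 0.241, edgeR adjusted p = 6.66e-06) and by 2.11 for Fabp_1 (adjusted p = 9.17e-07). Colony 2 has 1 library here, so its spread could not be measured, and the SE and p assume that it varies like the other groups. At this time point 16.3% of genes were called higher in colony 2. At 10:00 it was higher by 1.11 for Fabp (SE 0.207, adjusted p = 0.000548) and by 0.71 for Fabp_1 (adjusted p = 0.0162), against 7.8% of genes called higher. The Fabp_1 call at 10:00 was lost without replicate 1 of colony 2 (adjusted p = 0.103) and without replicate 1 of colony 1 (adjusted p = 0.224).

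The later differences did not pass edgeR's test for either identifier. For Fabp they were 0.51 at 14:00 (SE 0.205, adjusted p = 0.186), 0.60 at 18:00 (SE 0.205, adjusted p = 0.122) and 0.70 at 22:00 (SE 0.206, adjusted p = 0.187). At 02:00 the Fabp difference was 0.30 (adjusted p = 1), and at 06:00 of day 12 it was 0.38 (adjusted p = 0.567). Calls higher in colony 2 were made for 1.28% of genes at 14:00, 1.91% at 18:00, 0% at 22:00, 0% at 02:00 and 0.0102% at 06:00 of day 12. At 22:00, where edgeR called 0 genes higher, 1077 genes had an unadjusted p under 0.05 in either direction, and DESeq2 called 51 genes higher and limma-voom 1. At 02:00 there were 464 genes with an unadjusted p under 0.05, and DESeq2 called 5 higher and limma-voom 0. DESeq2 also called Fabp at 18:00 (adjusted p = 0.0399) and at 22:00 (adjusted p = 0.0407). For Fabp_1 the later differences were 0.42 at 14:00, 0.34 at 18:00, 0.36 at 22:00, -0.05 at 02:00 and 0.32 at 06:00 of day 12, with adjusted p between 0.298 and 1.

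**Figure D3:**
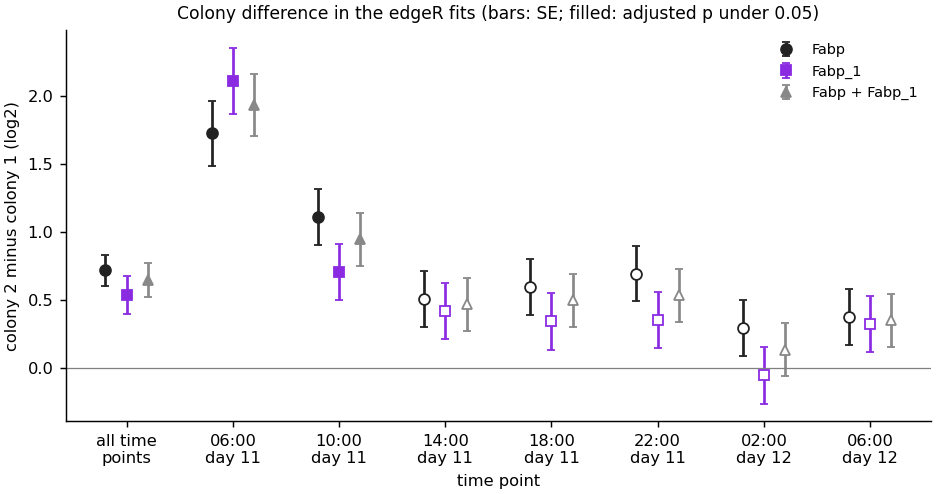
Difference of colony 2 minus colony 1 on the log2 scale in the edgeR fits, over all time points and at each of the 7, for Fabp, Fabp_1 and their sum. Bars are SE and filled symbols have an adjusted p under 0.05. At 06:00 of day 11 colony 2 is 1 library, and the SE there is from the spread of the other groups. The differences reach 1.73 and 2.11 at 06:00 of day 11 and lie between -0.05 and 0.70 from 14:00 on.

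The share of Fabp in the summed counts of Fabp and Fabp_1 varied between libraries. Fabp held 43.0% to 65.1% of the summed counts in colony 2, with a median of 57.2%, and 44.5% to 62.1% in colony 1, with a median of 53.8%. Its mean share over the libraries of a time point was 46.8% at 06:00 of day 11, 59.4% at 10:00, 59.1% at 14:00, 61.7% at 18:00, 53.6% at 22:00, 54.6% at 02:00 and 54.0% at 06:00 of day 12. The mean share was thus higher from 10:00 to 18:00 than at the other time points, although libraries overlapped. The lowest library of 10:00 had 53.8% and the highest of 02:00 had 60.3%. Fabp was chosen by its course and Fabp_1 was not, so this is a description only.

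The log2 ratio of Fabp to Fabp_1, a measure chosen after seeing the data, was 0.17 higher in colony 2 on average over the time points, and an exact two-sided permutation test of the colony labels within time points gave p = 0.0646 over 139968 arrangements. The difference of the ratio ran from -0.33 at 06:00 of day 11 to 0.38 at 10:00, and it was above 0 at the other 5 time points too. Without the 3 libraries that stand apart it was 0.22, and the exact permutation test gave p = 0.00540. With single libraries left out it was 0.13 to 0.25, with exact permutation p between 0.00120 and 0.259, and 4 of 27 such values passed 0.05. Leaving out the colony 2 library of 06:00 of day 11 gave 0.25, an exact permutation p of 0.00120.

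**Figure D4:**
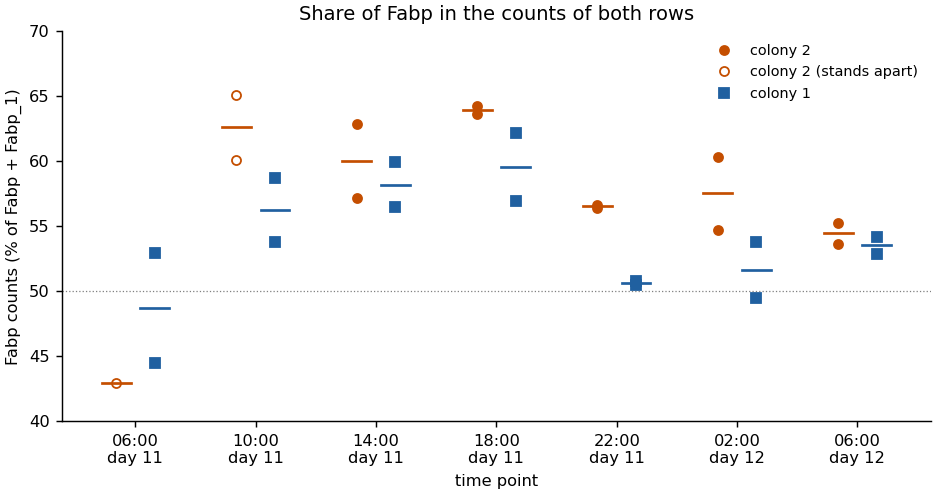
Share of Fabp in the summed counts of Fabp and Fabp_1, in percent, in every library at the 7 time points, on an axis from 40% to 70%. Circles are colony 2 and squares colony 1, open circles are the 3 libraries that stand apart, and short lines are means. The shares run from 43.0% to 65.1%, and the colony 2 library of 06:00 of day 11 is the lowest.

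Of the 2 Fabp genes in RefSeq, 1 overlaps LOC551008 at its end. LOC551008 had 8.61 to 66.1 CPM, and its highest value was in the colony 2 library of 06:00 of day 11. Its other 26 libraries had at most 31.1 CPM.

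Other genes of lipid handling were sought by name. Of 97 names for lipid binding and transport, synthesis and desaturation, and storage and breakdown, 5 matched an identifier, since most identifiers carry no gene name. Vg, whose product also carries lipid in the hemolymph, had 77 counts in all and was not tested. Of the other 4 genes, 0 were called over the 7 time points, against 2.29% of all genes. Their adjusted p over time were 0.676 for JHBP-1, a gene named for binding juvenile hormone, 0.545 for FAR1, named for a fatty acyl-CoA reductase, 0.942 for Akhr, the receptor of adipokinetic hormone, and 0.870 for ILP-2, an insulin-like peptide. DESeq2 and limma-voom also called 0 of them, and 0 had an unadjusted p under 0.05. For colony, 1 of the 4 was called, where 10.6% of all genes were called higher and 14.3% lower, so the count does not set these genes apart. FAR1 was higher in colony 2 by 0.49 on the log2 scale (SE 0.119, edgeR adjusted p = 0.00447). The differences were 1.40 for JHBP-1 (SE 0.668, adjusted p = 0.133), -1.75 for Akhr (SE 0.748, adjusted p = 0.0859) and -0.27 for ILP-2 (adjusted p = 0.640). The median of the 4 was 0.11, and that of all genes tested was -0.04.

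The genes whose course was most like that of the Fabp sum were ranked by Pearson r over the 14 means of colony and time point, each colony centred on its own mean, among 7299 genes averaging at least 10 CPM. Each r is a description, since the means share libraries, depth and tissue with the Fabp counts. The 5 highest with a gene name were GstS1, a glutathione S-transferase (r = 0.96), Tpx-4, a thioredoxin peroxidase (r = 0.95), Amih (r = 0.94), Cat, a catalase that breaks down hydrogen peroxide (r = 0.91), and Y-f, of the yellow family (r = 0.91). The 3 highest without a name were LOC552234 (r = 0.98), LOC552602 (r = 0.97) and LOC412150 (r = 0.97). A high r was common, with 97 genes at 0.9 or above and 1036 at 0.7 or above. Over the 12 means left without the 3 libraries that stand apart, r was 0.91 for GstS1, 0.90 for Tpx-4, 0.87 for Amih, 0.84 for Cat and 0.83 for Y-f.

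GstS1 averaged 561 ± 101 CPM at 10:00 and 345 ± 54.2 CPM at 02:00, and was highest at 14:00, at 572 ± 104 CPM (SD, n = 4 each). Tpx-4 averaged 1028 ± 352 CPM at 10:00 and 576 ± 101 CPM at 02:00, and Cat 64.6 ± 17.0 CPM at 10:00 and 37.3 ± 12.1 CPM at 02:00 (SD, n = 4 each). Both were highest at 06:00 of day 11, Tpx-4 at 1113 ± 1020 CPM and Cat at 64.8 ± 36.6 CPM (SD, n = 3). Those means include the colony 2 library lowest in Kenyon cell markers. These genes were not all alike between the colonies. Amih was higher in colony 2 by 0.42 (SE 0.0894, edgeR adjusted p = 0.00158), Tpx-4 by 0.53 (SE 0.171, adjusted p = 0.0239) and Y-f by 0.38 (SE 0.126, adjusted p = 0.0293). The difference was 0.18 for GstS1 (SE 0.10, adjusted p = 0.196) and 0.16 for Cat (SE 0.140, adjusted p = 0.439), which did not pass.

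**Figure D5:**
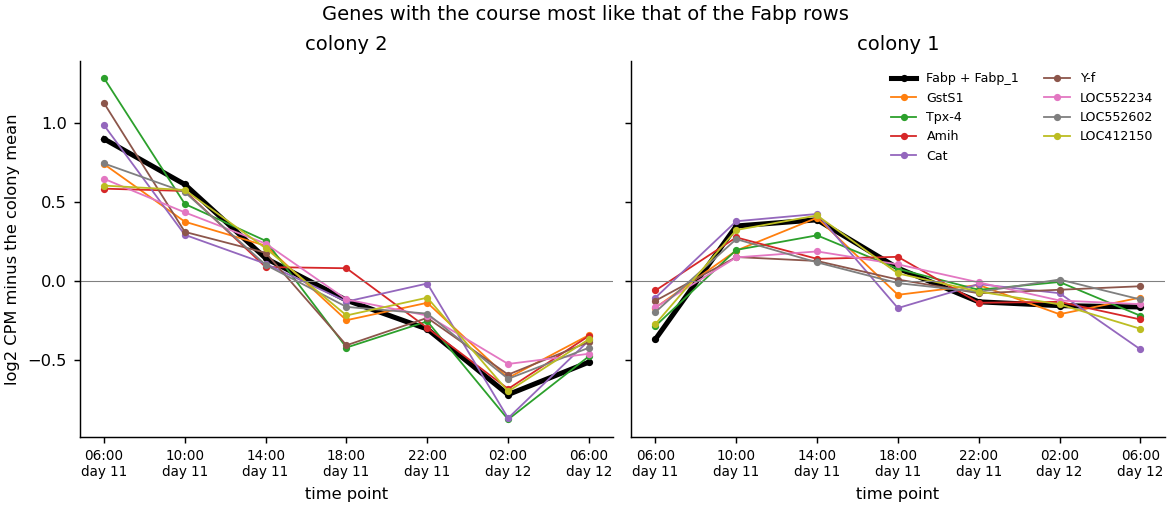
Course over the 7 time points of the Fabp sum (thick black line), of the 5 genes with a name and of the 3 without one that had the highest r to it in each of these classes, as log2 CPM minus the mean of the colony, with colony 2 on the left and colony 1 on the right. Points are means of the libraries of a colony and time point. In colony 2 the lines are highest at 06:00 of day 11, and in colony 1 the Fabp sum is highest at 14:00.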

How the data were processed

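The authors deposited 1 table of whole-number raw counts, by gene, for the 27 libraries. Polyadenylated RNA was sequenced with a directional kit, per the labels' protocols. Trimmomatic, FastQC, STAR, featureCounts and DESeq2 are named without versions, per the submitters' processing notes. The genome build, the annotation, the strand setting and what was done with multiply mapped reads are not given in the sources used here. Reads that match both Fabp genes could have been split or dropped, so the division between Fabp and Fabp_1 is uncertain, and no sequence or coordinate is given. A RefSeq gene table (Amel_HAv3.1) served for names, and 12166 of 12319 identifiers equalled a symbol in it.

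Libraries were assigned to colony, time point and replicate from their labels. The counts went into edgeR 4.0.16 under R 4.3.3. Filtering with filterByExpr, grouped by time point, kept 9816 genes, which held at least 99.9709% of the counts of a library. Libraries were scaled by TMM and tested with glmQLFit (robust) and glmQLFTest, with colony and time point as terms, or with their interaction for the test of it and for the differences at each time point. For the sum, the counts of Fabp and Fabp_1 were replaced by 1 added count in the same table. The Benjamini-Hochberg adjustment ran over every gene tested, and an adjusted p under 0.05 was called. Log2 CPM for principal components and for Pearson r used a prior count of 2. The edgeR tests for colony, for the interaction and at a single time point were first tried on simulated counts that held known changes. The edgeR test for time was tried only on counts without a change over time. DESeq2, limma-voom and the permutation test were not tried in this way. Alternatives were DESeq2 1.42.0, limma-voom (limma 3.58.1), DESeq2 size factors, no filter, CPM without scaling for the range over the time points, a replicate block, summed libraries, and libraries left out singly or as the 3 that stand apart.

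Replicates of a colony and time point differed by more than sampling noise, with a chi-square per degree of freedom of 11.1 to 44.3, and each counted as 1 sample. The gene, its comparisons, the marker lists and the lipid lists were chosen with earlier results of these data known. The genes named for likeness were taken by a rule, the 5 highest r among genes with a symbol and the 3 highest among others. Lipid genes were named where called, or else as the members with the smallest p.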

Additional observations from a re-analysis of the deposited data

Results flagged for a closer look

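The change of the colony difference over time was called for Fabp, Fabp_1 and their sum, as it was for 22.5% of all genes tested. This test reuses the values of the course by which Fabp was chosen, so it is not free of that choice. The interaction of colony and time point had an edgeR adjusted p of 0.0161 for Fabp, 0.00121 for Fabp_1 and 0.00257 for their sum. The colony difference in Fabp was 1.73 on the log2 scale at 06:00 of day 11 and 0.30 at 02:00 of day 12. Without the single colony 2 library of 06:00 of day 11 the adjusted p was 0.408 for Fabp, 0.564 for Fabp_1 and 0.430 for the sum. The SE and p at 06:00 of day 11 rest on 1 library in colony 2, and that time point, with 3 libraries, was not examined for a library far from the others. At the other 6 time points, each with 4 libraries and 4 measures (Fabp, Fabp_1, their sum and their ratio), 0 of 24 examinations found one.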

How the results depend on the processing

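Fabp was called higher in colony 2 with each of the 27 libraries left out in turn, at 0.60 to 0.75 on the log2 scale, as was Fabp_1 at 0.35 to 0.59 and the sum at 0.49 to 0.68. With a replicate block the colony difference was 0.72 for Fabp and 0.54 for Fabp_1, and the block changed no call. Deviations of same-numbered libraries had r from -0.19 to 0.31 (78 pairs, 13 above 0.1), and the main fits did not pair them. With at most 2 libraries per colony and time point, these r cannot tell whether the numbers mark a shared preparation. With summed libraries the calls were lost, at 0.76 for Fabp, 0.59 for Fabp_1 and 0.69 for the sum, with 24 genes called for colony in place of 2449 and 0 lipid genes in place of 1. This fit has 1 value per colony and time point.

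Without the 3 libraries that stand apart, the Fabp_1 colony difference was 0.27, no longer called. The interaction then had an adjusted p of 0.850 for Fabp, 0.793 for Fabp_1 and 0.838 for the sum, with 9 genes called in place of 2209. Genes called for colony numbered 1227, and 0 time points were called for Fabp, Fabp_1 or the sum, since colony 2 then had no library at the time points called before. With single libraries left out, the interaction's adjusted p was 0.00148 to 0.408 for Fabp, 0.000240 to 0.564 for Fabp_1 and 0.000868 to 0.430 for the sum, each call being lost without the colony 2 library of 06:00 of day 11, and 215 to 3134 genes were called. The time points called were 1 to 2 for each, and lipid genes called for colony 1 to 2. The Fabp_1 difference at 02:00 ran from -0.15 to 0.053, changing sign in 2 of 27. DESeq2 called 4 time points for Fabp, and DESeq2 and limma-voom 2 lipid genes for colony. The cause was not tested.

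The log2 range over the time points was 1.45 for Fabp, 2.04 for Fabp_1 and 1.62 for the sum in colony 2 alone, 0.51 for Fabp_1 and 0.73 for the sum in colony 1 alone, and 0.68 for Fabp_1 without the 3 libraries, where the mean of 06:00 of day 11 is of colony 1 alone and that of 14:00 of both colonies, so that the colony difference enters the range, as it does for 1.53 and 1.25 below, found without the colony 2 library of 06:00 of day 11. With single libraries left out it was 0.93 to 1.53 for Fabp, 0.90 to 1.35 for Fabp_1 and 0.83 to 1.25 for the sum. The colony difference of the Fabp to Fabp_1 ratio was 0.22 without the 3 libraries and 0.13 to 0.25 with single libraries left out. DESeq2 size factors and no filter changed none of the calls on Fabp, Fabp_1 and their sum, and unscaled CPM moved their ranges by less than 1 SD between replicates.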
